A study of Rattus norvegicus with 6 samples.

Results

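The miR-30 family was followed in cultured rat cardiac fibroblasts and in the exosomes that these cells released. The 8 entries described were the 5 guide strands rno-miR-30a-5p, rno-miR-30b-5p, rno-miR-30c-5p, rno-miR-30d-5p and rno-miR-30e-5p and the opposite arms rno-miR-30a-3p, rno-miR-30d-3p and rno-miR-30e-3p, written without the species prefix from here on. They were chosen by name from the 728 mature miRNAs listed, and all 8 passed the filter on low counts. The remaining 3 miR-30 entries of the table, miR-30b-3p, miR-30c-1-3p and miR-30c-2-3p, are given beside them. The exosome group held 3 libraries of RNA from vesicles, which were purified by centrifugation, filtration and ultracentrifugation of medium conditioned for 48 h with 1% exosome-depleted serum. The fibroblast group held 3 libraries of RNA from the cells themselves. Both groups came from hearts of newborn Wistar rats (P1-P2), and the cells were grown with 10% serum before conditioning. No treatment or genotype separates the groups, and the labels do not say that the samples of a group were separate cultures, so a p-value here reflects no more than the spread among these libraries, part of which may be technical.

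A microRNA (miRNA) is cut from a hairpin precursor, and 1 of its arms, the guide strand, is usually kept in an Argonaute protein while the opposite arm is mostly lost. The guide pairs with messenger RNAs through its seed, bases 2 to 8, so that family members with 1 seed can repress overlapping sets of targets. The miR-30 family is abundant in heart, and its guides are known to repress connective tissue growth factor, a matrix-promoting secreted protein made by cardiac fibroblasts. By the RefSeq annotation of assembly GRCr8 the hairpin genes lie in pairs: Mir30e has Mir30c1 as its nearest miRNA gene, both inside Nfyc, while Mir30a neighbours Mir30c2 and Mir30b neighbours Mir30d.

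RefSeq (GRCr8) held mature sequences for 4 of the 8 members and for both 3p arms of miR-30c. They are shown because the family is defined by its seed, printed in capitals, and because the near-identity of some entries bears on how reads could be assigned. The 3 guides shown share 1 seed, miR-30a-3p carries another, and both 3p arms of miR-30c share a further one.
miR-30a-5p: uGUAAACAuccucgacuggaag
miR-30e-5p: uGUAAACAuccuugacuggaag
miR-30c-5p: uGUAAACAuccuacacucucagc
miR-30a-3p: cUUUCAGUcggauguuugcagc
miR-30c-1-3p: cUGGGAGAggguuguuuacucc
miR-30c-2-3p: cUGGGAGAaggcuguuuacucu

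Counted from 1 at the 5′ end, miR-30a-5p and miR-30e-5p differed at 1 of 22 bases (C13U, with the base of miR-30a-5p first). From miR-30a-5p to miR-30c-5p there were 5 differences over the first 22 bases, C13A, G14C, G18C, G19U and A20C, all outside the seed. The hairpins of miR-30a and miR-30e are printed next, with the arms in capitals, since the opposite arms of this pair behaved differently. In the miR-30a hairpin the capitals mark both annotated arms. In the miR-30e hairpin they mark the annotated 5p arm and the stretch that aligned with miR-30a-3p at 21 of 22 bases.
miR-30a hairpin: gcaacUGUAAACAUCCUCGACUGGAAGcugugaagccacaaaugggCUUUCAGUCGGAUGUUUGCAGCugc
miR-30e hairpin: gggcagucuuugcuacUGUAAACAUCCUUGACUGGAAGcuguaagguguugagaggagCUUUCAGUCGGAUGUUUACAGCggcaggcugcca

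The single difference in that stretch was G18A, with the base of miR-30a-3p first. How the authors assigned reads that fit 2 such sequences is not given in the sources used here, so the split of counts between miR-30a and miR-30e is uncertain on both arms. The guide miR-30c-5p can come from either the miR-30c-1 or the miR-30c-2 hairpin, and its count belongs to both. Of the 655 listed miRNAs with a RefSeq sequence, 4 carried the seed of the guides; the fourth was miR-384-5p, with 2, 2 and 0 exosome counts and 180, 877 and 15 fibroblast counts.

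Total miRNA counts were 113129 to 120224 in the exosome libraries and 2439559 to 12508651 in the fibroblast libraries. In exosomes 84.9% to 90.1% of the counts belonged to miR-873-3p, against 0.391% to 2.37% in fibroblasts, so that every other miRNA has a small share there. Without it the exosome libraries held 11825 to 18164 counts. The exosome libraries are called 1, 2 and unnumbered, after their columns (values of a group follow this order throughout), and the fibroblast libraries 1, 2 and 4. The unnumbered exosome library stood apart in its scaling (TMM factor 0.432, against 1.13 and 1.34 in the other exosome libraries). Markers of fibroblasts and other mesenchymal cells (miR-143-3p, miR-145-5p, both arms of miR-199a, miR-214-3p, miR-21-5p and miR-22-3p) made up 0.177% to 1.36% of exosome and 51.7% to 53.01% of fibroblast counts. The 6 cardiomyocyte miRNAs looked up (miR-1-3p, miR-133a-3p, miR-133b-3p, miR-208a-3p, miR-208b-3p and miR-499-5p) together made up 0.00252% to 0.0116% of exosome and 0.00791% to 0.0172% of fibroblast counts. Blood and endothelial markers made up 0.0168% to 0.0230% and 0.0840% to 0.0966% of exosome counts, and 0.00570% to 0.0299% and 0.0100% to 0.0152% of fibroblast counts.

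The first comparison asked whether vesicles carry the miR-30 strands in the same relative amounts as the cells that shed them. With TMM scaling, which sets libraries to each other by the bulk of their miRNAs, all 5 guides were lower in exosomes and 0 of the 8 members were higher. miR-30c-5p was 20.1-fold lower, miR-30a-5p 9.5-fold, miR-30e-5p 8.80-fold, miR-30d-5p 6.77-fold and miR-30b-5p 5.10-fold. The opposite arms did not follow as a block: miR-30a-3p was lower, and miR-30d-3p and miR-30e-3p did not pass the test. With library sizes taken as the total without miR-873-3p, miR-30c-5p alone of the guides stayed lower and the log2 fold changes of miR-30b-5p, miR-30a-3p and miR-30d-3p turned positive. Over all tested miRNAs 18.6% were called lower, 11.3% higher and 29.9% either way, beside 6 of 8 members lower (quasi-likelihood test of edgeR, p-values adjusted by the Benjamini-Hochberg method). The median log2 fold change was -2.57 over the 8 members and -0.15 over all tested miRNAs. In these pooled libraries, fewer vesicles carrying a miRNA and less of it per vesicle cannot be told apart.

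**Figure D1:**
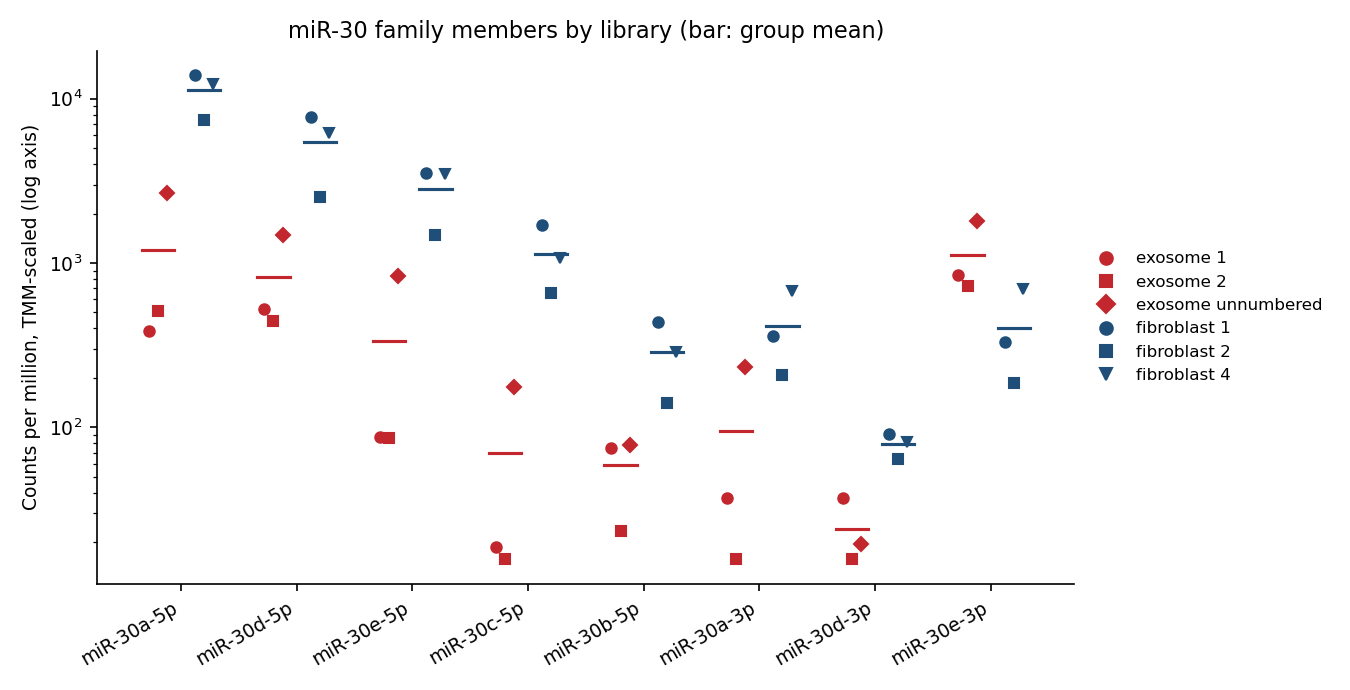
TMM-scaled CPM (log axis) of the 8 miR-30 members, exosome libraries in red to the left of fibroblast libraries in blue, with a bar at each group mean (n = 3 each). Exosome values lay below all fibroblast values for the 5 guides and miR-30d-3p and above them for miR-30e-3p; with library sizes without miR-873-3p the log2 fold changes of miR-30b-5p, miR-30a-3p and miR-30d-3p turn positive.

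Among the guide strands, miR-30a-5p, the most abundant guide in fibroblasts, was read 62, 65 and 138 times in exosome libraries 1, 2 and unnumbered, against 86126, 185843 and 23728 times in fibroblast libraries 1, 2 and 4. After TMM scaling this was 384, 509 and 2685 CPM (scaled counts relative to a common library size) in exosomes and 13951, 7469 and 12274 CPM in fibroblasts. The groups did not overlap, and the unnumbered exosome library was the highest of its group, at 6.99 times the lowest. The log2 fold change was -3.25 (SE 1.25, edgeR adjusted p = 0.033).

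miR-30c-5p, the member best known for repressing connective tissue growth factor in rat heart cells, was read 3, 2 and 9 times in exosomes, against 10508, 16298 and 2064 times in fibroblasts. Its mean level was 69.8 ± 91.2 CPM in exosomes and 1142 ± 527 CPM in fibroblasts (SD, n = 3 each). All exosome values lay below all fibroblast values, but the exosome level rests on 14 reads in all. Its log2 fold change was -4.33 (SE 0.92, edgeR adjusted p = 5.0e-05), the most negative of the 11 miR-30 entries.

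miR-30e-5p, which shares the Nfyc locus with the miR-30c-1 hairpin, was read 14, 11 and 43 times in exosomes, against 21912, 36793 and 6730 times in fibroblasts. In CPM this was 86.7, 86.2 and 837 in exosomes and 3549, 1479 and 3481 in fibroblasts. Libraries 1 and 2 of the exosomes were close to each other and the unnumbered one was 9.71 times the lowest, still below every fibroblast value. The log2 fold change was -3.14 (SE 0.99, edgeR adjusted p = 0.0080).

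miR-30d-5p, the second most abundant guide in fibroblasts, was read 85, 57 and 76 times in exosomes, against 47610, 62825 and 11996 times in fibroblasts. Scaled, these came to 526, 447 and 1479 CPM in exosomes and 7712, 2525 and 6205 CPM in fibroblasts. Its groups did not overlap, although fibroblast library 2 came within a factor of 2 of the unnumbered exosome library. The log2 fold change was -2.76 (SE 1.09, edgeR adjusted p = 0.039).

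miR-30b-5p, the partner of miR-30d in the genome and the scarcest guide in fibroblasts, was read 12, 3 and 4 times in exosomes, against 2686, 3502 and 558 times in fibroblasts. It averaged 58.5 ± 30.4 CPM in exosomes and 288 ± 147 CPM in fibroblasts (SD, n = 3 each), with no overlap. Its log2 fold change was -2.35 (SE 0.70, edgeR adjusted p = 0.0043). In CPM after TMM scaling, all exosome values lay below all fibroblast values for 5 of 5 guides and 6 of 8 members. Values so separated were found for 24.6% of all tested miRNAs. As shares of the counts without miR-873-3p, the groups overlapped for miR-30a-5p, miR-30b-5p, miR-30d-5p and miR-30e-5p, and did not for miR-30c-5p.

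The calls of 4 guides depended on single exosome libraries. Without exosome library 1 the edgeR adjusted p was 0.18 for miR-30a-5p, 0.17 for miR-30d-5p and 0.10 for miR-30e-5p, and without exosome library 2 it was 0.13, 0.14 and 0.076, with 0.083 for miR-30b-5p. Without fibroblast library 1 miR-30d-5p was not called either (edgeR adjusted p = 0.069). Leaving out the unnumbered exosome library moved the log2 fold changes of miR-30a-5p, miR-30c-5p, miR-30d-5p and miR-30e-5p further from 0, to -4.73, -6.13, -3.59 and -5.14. miR-30c-5p was called in each of the 6 fits that left out 1 library, with edgeR adjusted p-values of 7.9e-06 to 0.012. Over all alternatives the adjusted p lay between 2.2e-07 and 0.21 for miR-30a-5p, 1.3e-05 and 0.77 for miR-30d-5p, 1.1e-07 and 0.26 for miR-30e-5p, 8.3e-05 and 0.68 for miR-30b-5p, and 3.5e-09 and 0.027 for miR-30c-5p.

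The authors' deposited table gives ratios of fibroblasts over exosomes, and for all 8 members these have the direction found here. In the authors' deposited table miR-30c-5p was 16.2-fold, miR-30a-5p 9.24-fold and miR-30e-5p 8.32-fold lower in exosomes, with adjusted p-values of 0.0030, 0.011 and 0.012. In the authors' deposited table miR-30d-5p had a ratio of 6.64 and miR-30b-5p one of 4.87, with adjusted p-values of 0.063 and 0.42. With an adjusted p below 0.05, the share of miRNAs lower in exosomes was 7.28% in the authors' deposited table, and 3 of the 8 members were among them.

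The opposite arms gave 3 different pictures. miR-30a-3p, the arm opposite miR-30a-5p, was read 6, 2 and 12 times in exosomes, against 2223, 5159 and 1308 times in fibroblasts. Scaled, it reached 37.2, 15.7 and 233 CPM in exosomes and 360, 207 and 677 CPM in fibroblasts, so that the unnumbered exosome library lay above fibroblast library 2. It was called lower, with a log2 fold change of -2.38 (SE 0.73, edgeR adjusted p = 0.0062), but not without exosome library 1 or 2 (edgeR adjusted p = 0.11 and 0.10, with a range of 2.1e-05 to 0.89 under the alternatives). miR-30d-3p, the arm opposite miR-30d-5p, was read 6, 2 and 1 times in exosomes, against 560, 1600 and 158 times in fibroblasts. This was 37.2, 15.7 and 19.5 CPM in exosomes and 90.7, 64.3 and 81.7 CPM in fibroblasts. Its groups did not overlap, but it was not called, at a log2 fold change of -1.62 (SE 0.72; edgeR adjusted p = 0.072, with a range of 0.014 to 0.41 under the alternatives). Without exosome library 1, which held 6 of its 9 exosome reads, the log2 fold change was -2.39 (edgeR adjusted p = 0.081).

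miR-30e-3p was the most abundant miR-30 entry of exosome libraries 1 and 2. It was read 137, 92 and 92 times in exosomes, against 2052, 4601 and 1347 times in fibroblasts. Scaled, it reached 848, 721 and 1790 CPM in exosomes and 332, 185 and 697 CPM in fibroblasts. Every exosome value lay above every fibroblast value, although exosome library 2 exceeded fibroblast library 4 by little, and values so separated were found for 14.8% of all tested miRNAs. It was nevertheless not called: the log2 fold change was 1.46 (SE 0.79), with a 95% interval of -0.084 to 3.00 (edgeR adjusted p = 0.16, with a range of 6.5e-07 to 0.61 under the alternatives). It passed without fibroblast library 4, with an edgeR adjusted p of 0.036, while without the unnumbered exosome library its log2 fold change was 0.81. Leaving out that library moved miR-30a-3p to -4.09 and miR-30c-2-3p to -3.24 on the log2 scale. By abundance it ranked 21st, 27th and 26th of 728 in exosome libraries 1, 2 and unnumbered, and 124th, 143rd and 91st in fibroblast libraries 1, 2 and 4.

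Of the 3 remaining entries, miR-30c-2-3p was lower and the other two were not called. miR-30c-2-3p, the arm opposite miR-30c-5p in the miR-30c-2 hairpin, was read 3, 4 and 9 times in exosomes, against 1946, 4801 and 323 times in fibroblasts (log2 fold change -1.90, SE 0.70, edgeR adjusted p = 0.025, with a range of 8.3e-05 to 0.62 under the alternatives). It was not called without exosome library 1 or 2. miR-30c-1-3p, from the other miR-30c hairpin, was read 7, 5 and 3 times in exosomes, against 439, 1231 and 216 times in fibroblasts, with a log2 fold change of -0.77 (SE 0.66, edgeR adjusted p = 0.43). miR-30b-3p was read 3, 6 and 3 times in exosomes, against 115, 689 and 57 times in fibroblasts, with a log2 fold change of 0.59 (SE 0.78, edgeR adjusted p = 0.63, with a range of 0.016 to 0.98 under the alternatives). With library sizes without miR-873-3p it was called higher, at 3.09. With those library sizes 378 of 696 tested miRNAs were called higher, and the median of all tested miRNAs was 2.37. In each of the 3 remaining entries the exosome and fibroblast levels in CPM overlapped.

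Summed over the 5 guides, exosome libraries 1, 2 and unnumbered held 176, 138 and 270 counts, and fibroblast libraries 1, 2 and 4 held 168842, 305261 and 45076. This was 0.165% ± 0.0549 of exosome counts and 2.31% ± 0.415 of fibroblast counts (SD, n = 3 each). The share in each library was 0.146% (95% Clopper-Pearson interval 0.126 to 0.170), 0.122% (0.102 to 0.144) and 0.227% (0.201 to 0.256) in exosomes and 2.65%, 2.44% and 1.85% in fibroblasts. With miR-873-3p left out of the total, the guides made up 0.969%, 0.962% and 2.28% of exosome counts and 2.68%, 2.45% and 1.89% of fibroblast counts. On that scale the unnumbered exosome library lay above fibroblast library 4, so the groups overlapped. The 6 opposite arms summed to 0.111% ± 0.0204 of exosome and 0.133% ± 0.0158 of fibroblast counts (SD, n = 3 each). Once miR-873-3p was taken out of the total, they made up 0.894% ± 0.120 of exosome and 0.135% ± 0.0160 of fibroblast counts. The intervals reflect counting error alone. They may be too narrow even for that, because amplified reads do not each stand for a separate molecule.

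How far a member lay from 0 therefore depended on how libraries were set to each other. A change of scaling shifts all miRNAs of a library together, so subtracting the median of all tested miRNAs removes most of it by construction. The counts of miRNAs called higher and lower were 79 and 130 with TMM, 43 and 121 with total counts, 35 and 195 with library sizes that include unlisted reads, and 378 and 36 with the total without miR-873-3p. In the same order, the median miRNA had a log2 fold change of -0.15, -0.57, -0.96 and 2.37. Relative to that median, miR-30c-5p lay between -4.58 and -4.18 under these 4 scalings, miR-30a-5p between -3.58 and -3.10, miR-30e-5p between -3.54 and -2.99, miR-30d-5p between -2.91 and -2.60 and miR-30b-5p between -2.28 and -1.96. miR-30e-3p lay between 1.47 and 1.74 above the median. Before this subtraction the log2 fold change of miR-30a-5p ranged from -4.55 to -0.98. Over all alternatives, which include fits without 1 library, values relative to the median moved more. They ran from -4.54 to -2.51 for miR-30a-5p, from -5.93 to -3.45 for miR-30c-5p and from 1.00 to 2.26 for miR-30e-3p.

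**Figure D2:**
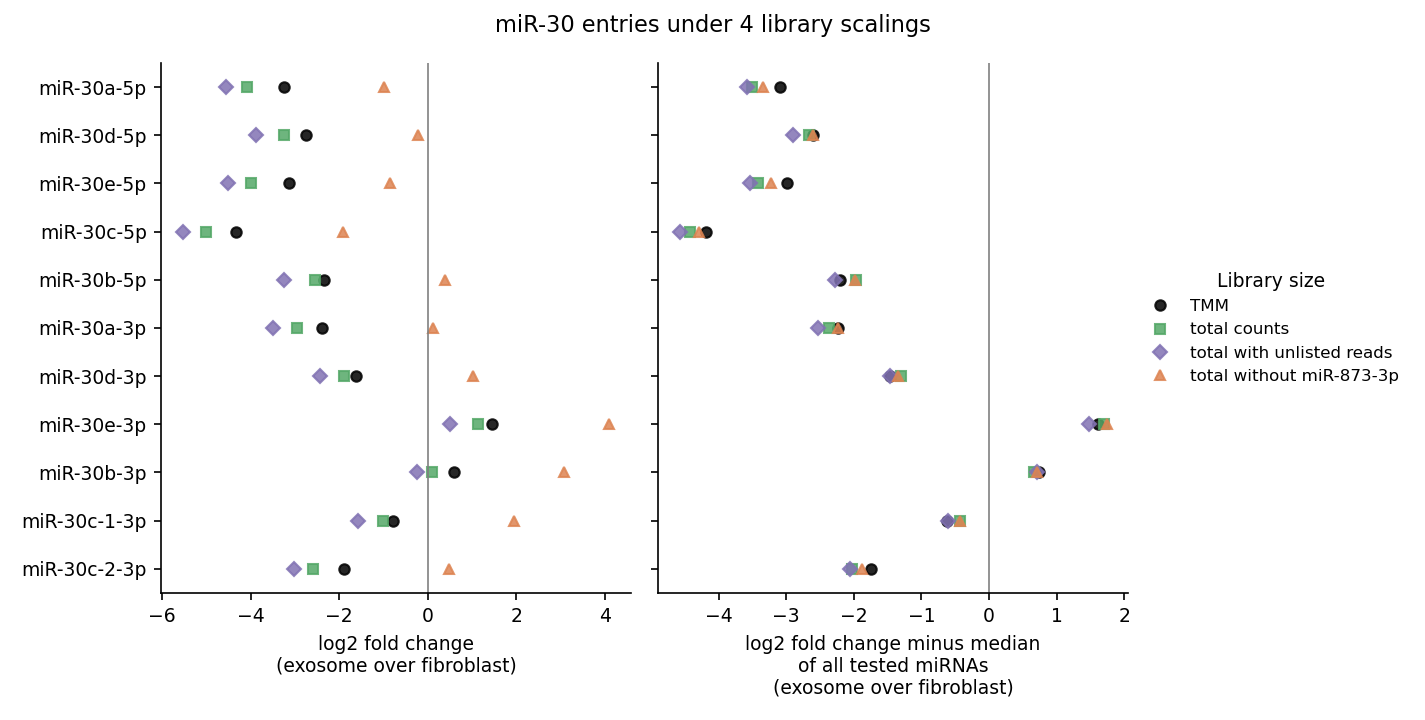
Log2 fold change, exosome over fibroblast, of the 11 miR-30 entries under 4 library scalings (left), and the same values minus the median of all tested miRNAs under that scaling (right). The points of an entry spread widely on the left, where miR-30a-5p runs from -4.55 to -0.98 and miR-30b-5p, miR-30a-3p, miR-30d-3p, miR-30b-3p, miR-30c-1-3p and miR-30c-2-3p change sign, and lie close together on the right. Subtracting the median removes most of a change of scaling by construction.

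The makeup of the guide strands can be read within a library and does not depend on scaling. In fibroblasts the order was miR-30a-5p, miR-30d-5p, miR-30e-5p, miR-30c-5p and miR-30b-5p in each of the 3 libraries, and the shares of neighbours in that order did not overlap. Whether each read was assigned to only 1 miRNA is not given, so the shares of near-identical guides are uncertain. The 3 guides with a RefSeq sequence are 22 to 23 bases long, and counts were compared between guides without dividing by length. The efficiency of library preparation can differ between sequences. miR-30a-5p made up 44.5% ± 8.26 of the guide counts in exosomes and 54.8% ± 5.29 in fibroblasts, and miR-30d-5p 39.2% ± 10.2 in exosomes and 25.1% ± 4.02 in fibroblasts (SD, n = 3 each). In exosomes these shares overlapped, and miR-30d-5p was the most abundant guide in exosome library 1.

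miR-30c-5p was the guide whose shares did not overlap between groups, with 1.70%, 1.45% and 3.33% in exosomes and 6.22%, 5.34% and 4.58% in fibroblasts. It averaged 2.16% ± 1.02 of guide counts in exosomes and 5.38% ± 0.823 in fibroblasts (SD, n = 3 each; two-sided exact permutation test, p = 0.1, the lowest value possible with 3 libraries a group, and 0.25 adjusted over 5 guides). miR-30e-5p made up 10.6% ± 4.6 of guide counts in exosomes and 13.3% ± 1.47 in fibroblasts, and miR-30b-5p 3.49% ± 2.90 in exosomes and 1.32% ± 0.234 in fibroblasts (SD, n = 3 each; exact permutation p = 0.4 and 0.2). The exosome share of miR-30b-5p rested on library 1, which held 12 of its 19 exosome reads. The exact permutation p was 0.2 for both miR-30a-5p and miR-30d-5p.

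**Figure D3:**
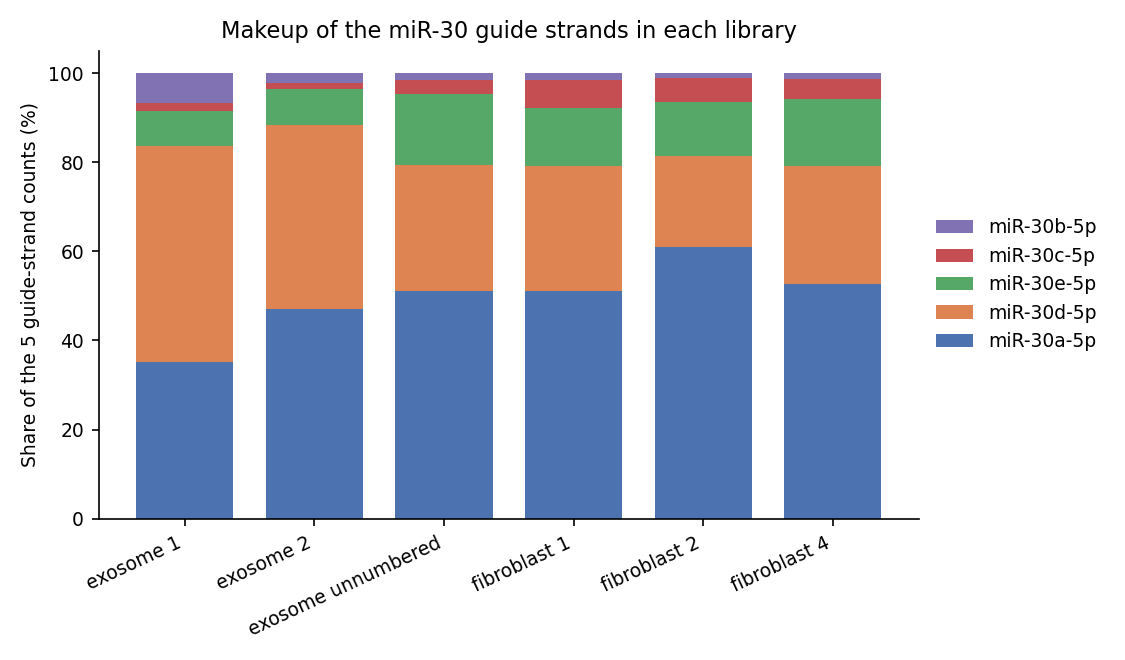
Share of each guide strand among the counts of the 5 miR-30 guides (percent) in the 3 exosome libraries (left) and the 3 fibroblast libraries (right). miR-30a-5p and miR-30d-5p fill most of every bar, and the share of miR-30c-5p was 1.45% to 3.33% in exosomes and 4.58% to 6.22% in fibroblasts.

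A fit over all seed families asked whether 1 guide differed from its family beyond the spread estimated in the fit, which draws on all tested miRNAs. Within the family of the shared seed, usage relative to the family in exosomes over fibroblasts was read on the natural-log scale. It was -0.69 for miR-30c-5p, 0.06 for miR-30a-5p and 0.14 for miR-30e-5p (edgeR diffSpliceDGE, adjusted p = 0.63, 0.998 and 0.998). Of the 150 entries in that fit 6.67% were called, 6.0% higher and 0.667% lower, and 0 of these 3 guides. With families formed by name and arm, which hold all 5 guides, the values were -0.83 for miR-30c-5p, 0.54 for miR-30b-5p and 0.26 for miR-30d-5p (edgeR diffSpliceDGE, adjusted p = 0.60, 0.74 and 0.9998). Of the 177 entries in that fit 5.08% were called, 3.39% higher and 1.69% lower, and 0 of the 5 guides. Among the 3p arms grouped by name, which do not all carry 1 seed, miR-30a-3p was lower relative to the other arms, with a natural-log usage of -1.75 (edgeR diffSpliceDGE, adjusted p = 0.031). That call was lost without exosome library 1 or 2, without fibroblast library 2 and with no filter on low counts (adjusted p = 0.31, 0.44, 0.051 and 0.056). The difference in level between miR-30c-5p and the other guides was thus not beyond the spread estimated in these fits, which does not show that the guides acted alike.

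The second comparison was between the 2 arms of each hairpin. In the miR-30e hairpin the more abundant arm differed between the groups: exosomes held 0.102, 0.120 and 0.467 reads of the 5p arm per read of the 3p arm in libraries 1, 2 and unnumbered, and fibroblasts held 10.7, 8.0 and 4.996 in libraries 1, 2 and 4. The 5p arm thus made up 9.27% (95% Clopper-Pearson interval 5.16 to 15.1), 10.7% (5.45 to 18.3) and 31.9% (24.1 to 40.4) of the hairpin's reads in exosomes and 91.4%, 88.9% and 83.3% in fibroblasts. On the log2 scale the ratio of 5p over 3p averaged -2.48 ± 1.21 in exosomes and 2.91 ± 0.55 in fibroblasts (SD, n = 3 each; two-sided exact permutation test, p = 0.1, and 0.17 adjusted over 5 ratios).

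In the fit over all 248 hairpins, usage of miR-30e-3p within its hairpin was higher in exosomes by 1.85 on the natural-log scale (edgeR diffSpliceDGE, adjusted p = 0.010). The counterpart value of miR-30e-5p was -1.34 (adjusted p = 0.16); the value is relative to the hairpin's fitted mean, so the arms need not mirror each other. miR-30e-5p was called lower with total counts, at -1.62, and without the unnumbered exosome library, at -2.17 (edgeR diffSpliceDGE, adjusted p = 0.023 and 0.012). Over all 496 arms tested, 13.9% were called, 9.88% higher and 4.03% lower in exosomes. Arms of other hairpins had larger values than miR-30e-3p, such as 4.96 for miR-10a-3p, 4.32 for miR-21-3p and 3.83 for miR-16-3p. A higher share of the opposite arm in exosomes was therefore not particular to miR-30e. The share of all hairpins whose arm ratios did not overlap between the groups was not computed. As printed above, the miR-30e stretch that aligned with miR-30a-3p differs from it at 1 base, and how reads of these arms were split is not given. The call of miR-30e-3p was lost without exosome library 2 and without fibroblast library 1 (adjusted p = 0.060 and 0.13).

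**Figure D4:**
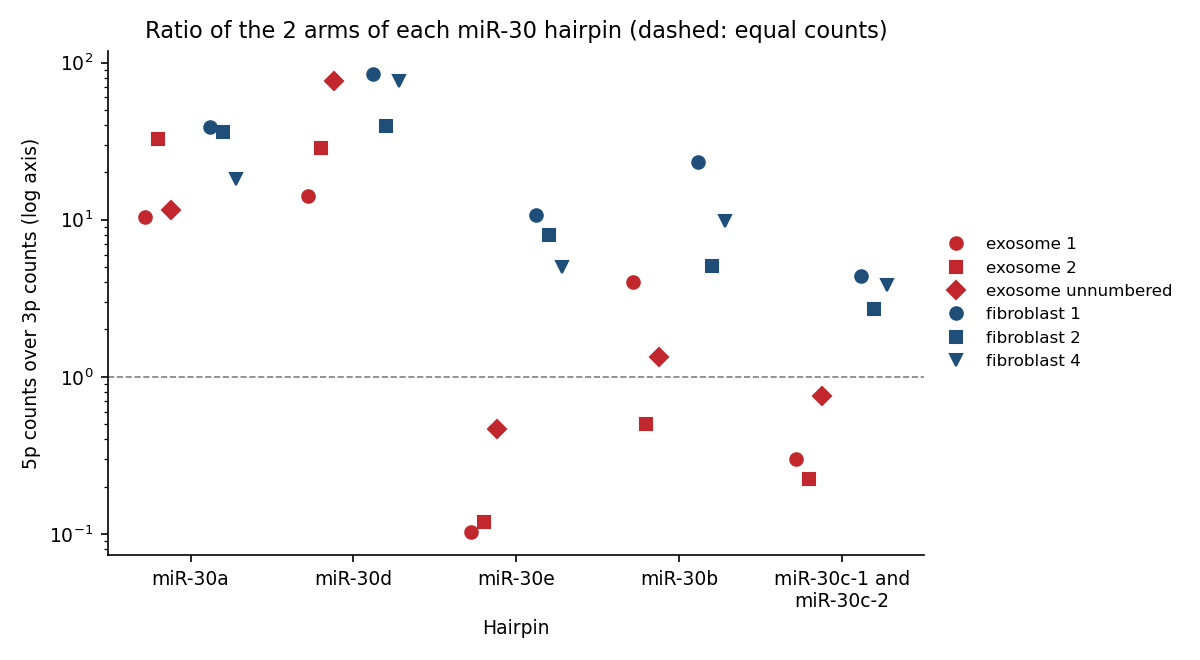
Reads of the 5p arm per read of the 3p arm (log axis) for each miR-30 hairpin, exosome libraries in red to the left of fibroblast libraries in blue; the dashed line marks equal counts. All exosome libraries lie below the line for miR-30e (0.102 to 0.467) and for the 2 miR-30c hairpins summed (0.222 to 0.75), where all fibroblast libraries lie above it.

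The other hairpins differed among themselves. For miR-30c the single guide was set against the sum of its 2 opposite arms, with ratios of 0.3, 0.222 and 0.75 in exosomes against 4.41, 2.70 and 3.83 in fibroblasts, again with no overlap (exact permutation p = 0.1), on 14 guide reads. For miR-30b, exosomes had ratios of 4.0, 0.5 and 1.33 and fibroblasts ratios of 23.4, 5.08 and 9.79 (exact permutation p = 0.1), on 31 exosome reads of both arms. Usage of miR-30b-3p within its hairpin was 1.62 higher on the natural-log scale (edgeR diffSpliceDGE, adjusted p = 0.038). The call was lost with total counts and without exosome library 1 or 2 (edgeR diffSpliceDGE, adjusted p = 0.35, 0.051 and 0.36).

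For miR-30a, exosomes had ratios of 10.3, 32.5 and 11.5 and fibroblasts ratios of 38.7, 36.0 and 18.1. For miR-30d, exosomes had ratios of 14.2, 28.5 and 76 and fibroblasts ratios of 85.02, 39.3 and 75.9. Both hairpins kept the 5p arm dominant in every library, and the groups overlapped (exact permutation p = 0.2 and 0.3). Their 3p arms were not called in the fit over all hairpins, with natural-log relative usages of 0.62 and 0.82 (edgeR diffSpliceDGE, adjusted p = 0.63 and 0.47).

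Among miRNAs of like abundance, the profile of the summed guides over the 6 libraries was most closely matched by miR-181a-5p, let-7c-5p, miR-99b-5p and let-7a-5p. Their root mean square differences from it were 0.40, 0.70, 0.77 and 0.79 log2 units, among 19 miRNAs within 2 log2 units in level. Their log2 fold changes were -3.63, -4.38, -4.45 and -4.09, of which that of miR-181a-5p did not pass (edgeR adjusted p = 0.056, 0.0083, 0.0026 and 0.0089). Because they were picked by their profile over both groups, negative fold changes like those of the guides follow from the choice. Of the 100 miRNAs most abundant in fibroblasts, which include 4 of the 5 guides, 76 were lower in exosomes and 2 were higher, with TMM scaling, at a median log2 fold change of -3.42. They were ranked by the fibroblast levels that also enter the fold changes, so the choice itself favours lower calls. With library sizes without miR-873-3p, 36 of these 100 were lower and 18 were higher. Relative to the median of all tested miRNAs, the median of these 100 lay at -3.27 and -3.31 under these scalings.

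Other miRNAs tied in heart to connective tissue growth factor or to collagen were also examined. As a base for the counts above and below, 18.6% of all tested miRNAs were lower and 11.3% higher with TMM scaling. With library sizes without miR-873-3p, 36 of 696 tested were lower and 378 higher. Of the 12 matrix-related miRNAs listed, 2 (miR-133a-3p and miR-133b-3p) are also cardiomyocyte markers. Of the 12, 11 were tested, and with TMM scaling 5 were lower, 0 were higher and 6 stayed below the threshold. The median of their log2 fold changes was -2.63, and with library sizes without miR-873-3p it was 0.038, with 2 lower and 2 higher. The most abundant in fibroblasts were miR-26a-5p, miR-101a-3p and the collagen-repressing miR-29a-3p, with log2 fold changes of -4.54 (SE 1.48), -3.37 (SE 0.91) and -4.52 (SE 0.97) and edgeR adjusted p-values of 0.010, 0.0017 and 6.0e-05. miR-29a-3p was read 4, 6 and 9 times in exosomes, against 17152, 20783 and 2692 times in fibroblasts, close to the counts of miR-30c-5p in both groups. All 7 fibroblast and mesenchymal markers were also lower with TMM scaling, at a median of -5.11 on the log2 scale, and 4 of 7 without miR-873-3p in the library sizes. Of the cardiomyocyte markers 1 of 4 tested was lower and 0 higher, and of the endothelial and blood markers 1 of 2 and 1 of 5 tested were higher and 0 lower with TMM scaling. The part of the cells they mark in the values of the miR-30 family was not tested.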

How the data were processed

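Small RNA libraries of 3 exosome and 3 fibroblast samples were available as raw counts, as a normalized table and as a finished comparison. Raw counts per miRNA, as the authors deposited them, entered all main tests. The normalized signal the authors deposited is close to the raw count over a size factor of its library, judging by the values. For the miR-30 entries the reads behind it were 97.8% to 100.0% of the raw counts, apart from miR-30c-1-3p in exosome library 1 (6 of 7 reads, 85.7%). The deposited comparison holds, per the file headers, a ratio (fold change) of mean normalized counts, log2 of that ratio, and raw and adjusted p-values; it runs as fibroblasts over exosomes. The submitters' processing notes name CASAVA 1.8.2, cutadapt 1.2.1, DESeq and rn5. No aligner, counting rule or annotation release was given in the labels or headers. A row of the normalized table without a miRNA name held 77.2% to 84.3% of exosome reads and 63.1% to 82.3% of fibroblast reads; it was used only for the alternative with unlisted reads.

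The main test was edgeR's (version 4.0.16) quasi-likelihood F test of group over all 6 libraries, two-sided, after TMM scaling and filterByExpr with a minimum count of 10 and a minimum total of 15. Its p-values were adjusted over all 698 tested miRNAs by the Benjamini-Hochberg method, with a threshold of 0.05. Because the filter reads CPM, few reads suffice in the shallow exosome libraries. Each standard error was derived from the log2 fold change and its F statistic. Arm usage within hairpins and usage within families were tested with diffSpliceDGE over all hairpins or families. Usage values are coefficients on the natural-log scale, while fold changes are on the log2 scale. Shares and ratios were compared with exact permutation tests, and share intervals are 95% Clopper-Pearson intervals. The code was tested on simulated data.

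All 8 members are named. As most alike, the 4 miRNAs were named with the smallest root mean square difference of centred log2(TMM CPM + 1) profiles, within 2 log2 units in level of the summed guides, and of the matrix-gene list the 3 most abundant in fibroblasts. The members and lists were chosen with earlier results of these data known. Alternatives were RLE, total-count and 2 further library sizes, no filter, each library left out, a replicate block, thinned fibroblast libraries and DESeq2 1.42.0. Added after seeing the data were limma 3.58.1 on log2(value + 1) of the normalized table, families by name and arm, and shares from the normalized table. Sequences come from RefSeq, assembly GRCr8, and since the files use another build no coordinates are given.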

Additional observations from a re-analysis of the deposited data

How the results depend on the processing

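Depth limits the exosome side: 14 reads stand behind miR-30c-5p and 9 behind miR-30d-3p there. The counts of miRNAs higher and lower lay between 46 and 78 and between 86 and 139 when 1 library was left out. The number higher was 43 with total counts, 378 without miR-873-3p in the library size, 35 with unlisted reads in it and 41 with limma on the normalized table; the number lower was 36 without miR-873-3p. Without miR-873-3p in the library size, which shifts the median of all tested miRNAs to 2.37, log2 fold changes were -0.98 for miR-30a-5p, 0.39 for miR-30b-5p, -0.23 for miR-30d-5p, -0.86 for miR-30e-5p, 0.13 for miR-30a-3p, 1.02 for miR-30d-3p, 4.11 for miR-30e-3p, 1.94 for miR-30c-1-3p, 0.49 for miR-30c-2-3p and 3.09 for miR-30b-3p. Of these entries, miR-30e-3p and miR-30b-3p were called, among the 378 higher. With unlisted reads, miR-30d-3p was called at -2.43 and miR-30b-3p turned to -0.25. With no filter miR-30d-3p was called at -1.85, and with limma miR-30a-3p was not called at -2.74. With thinned fibroblast libraries miR-30e-3p was called at 2.08.

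Leaving out 1 library gave log2 fold changes of -4.73 to -2.87 for miR-30a-5p, -2.82 to -1.91 for miR-30b-5p, -6.13 to -3.81 for miR-30c-5p, -3.59 to -2.53 for miR-30d-5p, -5.14 to -2.69 for miR-30e-5p, -4.09 to -1.97 for miR-30a-3p, -2.39 to -1.56 for miR-30d-3p and 0.81 to 1.99 for miR-30e-3p. The natural-log arm usage ranged from 1.29 to 1.93 for miR-30b-3p and from 1.67 to 2.15 for miR-30e-3p, and was 1.42 for miR-30b-3p with total counts. Within families, usage on that scale ranged from -0.21 to 0.17 for miR-30e-5p and from -0.0045 to 1.21 for miR-30b-5p. With families by name it was -0.079 for miR-30a-5p and -0.0021 for miR-30e-5p. Fits without a fibroblast library tested 359 to 414 miRNAs, against 698 with all libraries. The cause of these changes was not tested.

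Groups shared the numbers 1 and 2 only. Differences between libraries 1 and 2 of exosomes and of fibroblasts correlated at Pearson's r = -0.060 across miRNAs. This is a single contrast with few exosome reads, so it cannot show whether same-numbered samples belong together, and the labels do not say so. With the replicate block on the 4 libraries numbered 1 and 2, miR-30e-3p was called at a log2 fold change of 1.71 (edgeR adjusted p = 0.042). In that fit 100 miRNAs were higher and 142 lower. On the natural-log scale, arm usage of miR-30b-3p was 1.61 and not called, and arm usage of miR-30e-5p was called at -2.21. Usage of miR-30e-5p within its seed family was -0.10 on that scale. The planned count test on reads recovered from the normalized table was not run, since 2 of its 6 columns did not come out whole. In 1 or more fits miR-30d-3p, miR-30b-3p and miR-30c-1-3p did not pass the filter.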

Other observations

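The count of miR-30e-3p per 1000 reads of miR-873-3p was 1.34, 0.931 and 0.858 in exosome libraries 1, 2 and unnumbered, and 25.6, 94.0 and 23.3 in fibroblast libraries 1, 2 and 4. For miR-30a-5p the same ratio was 0.607, 0.658 and 1.29 in exosomes and 1075, 3796 and 410 in fibroblasts. Among the 4 miR-30 entries with the most exosome reads, a choice made after their values were seen, miR-30e-3p varied least between exosome libraries in CPM (highest over lowest 2.48, against 3.31 for miR-30d-5p, 6.99 for miR-30a-5p and 9.71 for miR-30e-5p). That order depended on the scaling. As shares of all exosome counts, miR-30e-3p ran from 0.0773% to 0.114% and miR-30d-5p, which varied slightly less, from 0.0504% to 0.0707%.

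The letters GGAG, a motif linked in human T cells to vesicle loading by hnRNPA2B1, were searched on the mature strand only. They were found in both 3p arms of miR-30c, where they overlap the seed, and in none of the other 4 miR-30 entries with a RefSeq sequence. Of 630 tested miRNAs with a sequence, 8.10% held these letters; 7.84% of those were called higher in exosomes, against 12.3% of the miRNAs without them, and the medians of the log2 fold change were -0.59 and -0.08. The 7.84% stands for 4 of 51 miRNAs. Neither miR-30c 3p arm was called higher in exosomes with TMM scaling. With library sizes without miR-873-3p the log2 fold changes were 1.94 for miR-30c-1-3p and 0.49 for miR-30c-2-3p, and neither arm was called. A role of the motif in these values was not tested.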
